A study of Danio rerio with 24 samples.

Results

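The comparison described here is the change in RNA levels of vehicle-treated zebrafish embryos over the hour between 3.5 and 4.5 hours post fertilization (hpf). Whole wild-type embryos were kept in water with 0.1% dimethyl sulfoxide (DMSO) from 0.75 hpf, and 4 libraries collected at 4.5 hpf were set against 4 collected at 3.5 hpf. These 8 of the 24 libraries of the series were chosen by their labels alone. Of the others, 4 DMSO libraries of 2 hpf served to sort genes by their level before this hour. A further 8 libraries, from embryos held in the same DMSO with 40 µM tetrabromobisphenol A (TBBPA, a flame retardant) over the same period and collected at 4.5 and 3.5 hpf, were used only where the hour is described under exposure. By its title, the study asked how that exposure alters zygotic transcription and histone acetylation. In the vehicle, the question is how the blastula's RNA changes by itself.

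A zebrafish embryo starts with messenger RNA that the mother laid down in the egg. Around the midblastula transition the embryo's own genome is switched on, with the maternal transcription factors Pou5f3, Nanog and Sox19b as the known activators, and maternal messages are cleared in parallel, in part through the zygotic microRNA miR-430 and in part through codon content and deadenylation. The first cell layers, the outer enveloping layer, the deep cells that form the germ layers and the yolk syncytial layer, take shape in the same period.

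Levels are in FPKM, fragments per kilobase of gene, as the authors deposited them. Reads assigned to genes, recovered from those values, were 10.6 to 20.02 M (M, mega) per library across the 8 libraries. Log2 differences were computed on log2(FPKM+1), which understates the change of genes near or under 1 FPKM. Tests are limma's, 2-sided, with Benjamini-Hochberg adjustment over the 12354 genes that reached 1 FPKM in 4 or more libraries, and "higher", "lower", "rose" and "fell" refer to calls at an adjusted p under 0.05. Nothing in the labels says that replicates came from separate clutches, so the p-values cover the spread among these libraries, which may be technical. In whole embryos, fewer cells of a type and less RNA per cell cannot be told apart.

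The hour changed most of the transcriptome. Of the genes tested, 8662 were called (70.1%). They split into 4427 higher (35.8%) and 4235 lower (34.3%), and 983 were higher (7.96%) and 629 lower (5.09%) by more than 2-fold. Because so many genes were called, a gene list is read below against these shares and against the median log2 difference over all genes, 0.02. The split of higher to lower depends on the scaling. When every library was made to sum to the same total (TPM), the median over all genes moved to -0.12 and the split to 3072 higher and 5447 lower. Scaling to total reads gave 3308 higher and 5169 lower.

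The 2 stages were far apart relative to the replicates. Pairs of libraries of 1 stage had Pearson correlations of 0.989 to 0.993 across genes, and pairs across the stages 0.905 to 0.932, with genes that are not independent of each other. The first principal component carried 86.4% of the variance and separated the stages. Replicate 4 of 4.5 hpf lay farthest from 3.5 hpf on it, at 48.3 against 34.4 to 39.6 for the other 4.5 hpf libraries and -40.4 to -38.3 for the 3.5 hpf libraries. That library often holds the highest value of a rising gene and the lowest of a falling one. Without it 8276 genes were called, and 941 were higher and 544 lower by more than 2-fold.

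The labelled tissue was checked against markers it should lack. None of 12 markers of differentiated cells and none of 8 markers of ovarian follicle or liver reached the level for testing. The highest single values were 1.45 FPKM for ins and 0.38 FPKM for tfa.

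Genes that were absent at 2 hpf took a larger share of RNA at 4.5 hpf. Genes with a mean under 0.5 FPKM in the DMSO embryos of 2 hpf took 3.67% ± 0.19 of summed FPKM at 4.5 hpf and 1.49% ± 0.037 at 3.5 hpf (SD, n = 4 each). All 4.5 hpf libraries, at 3.57, 3.48, 3.72 and 3.91%, lay above all 3.5 hpf libraries, at 1.47, 1.49, 1.46 and 1.54%. The same genes took 0.237% ± 0.012 at 2 hpf (SD, n = 4). That share is low by definition, because these 2 hpf libraries set the class. The authors also scaled the 2 hpf table on its own, so levels at 2 hpf are given without a test. An exact permutation test of 4 against 4 libraries gave p = 0.0286, the smallest it can give, and 0.0333 after adjustment over 7 library measures. Embryos of 4.5 hpf also had more genes at 1 FPKM or more, 12248 ± 32 against 11844 ± 14 at 3.5 hpf (SD, n = 4 each, the same exact p). That order turned round at a level of 5 FPKM, where 4.5 hpf embryos had 30.5 fewer genes on average.

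By level at 2 hpf, 1215 genes that were absent then were tested, of 19538 in that class. Of these, 931 were higher and 44 lower, with a median log2 difference of 1.06. Many passed the filter only through their 4.5 hpf libraries, which set the direction of their difference but not the call. Among the 488 that had at least 1 FPKM in every 3.5 hpf library, 332 were higher, 40 were lower and 116 were not called, with a median of 0.86. Genes at 2 FPKM or more at 2 hpf, which number 9435 among those tested, went the other way on balance, with 3017 higher, 3846 lower and a median of -0.05. Over the 11209 genes of any class at 1 FPKM or more in every 3.5 hpf library, 32.8% were higher and 37.7% lower. Some lists below are also counted over their members among these genes, and these counts were added after values had been seen. A member that passed through its 4.5 hpf libraries alone had to have the greater mean there, though not to be called. Lists and families without such a count still hold any members that passed in that way. The genes counted here in turn include any that passed through their 3.5 hpf libraries alone, whose means had to be smaller at 4.5 hpf. Of the 983 genes that rose more than 2-fold, 646 (65.7%) had been absent at 2 hpf, and of the 629 that fell more than 2-fold, 609 (96.8%) had been present. Of all 12354 genes tested, 1215 had been absent and 9435 present. Among the 488 absent genes at 1 FPKM or more in every 3.5 hpf library, 221 rose more than 2-fold. A gene under 1 FPKM at 3.5 hpf cannot fall by more than 2-fold on the log2(FPKM+1) scale.

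**Figure D1:**
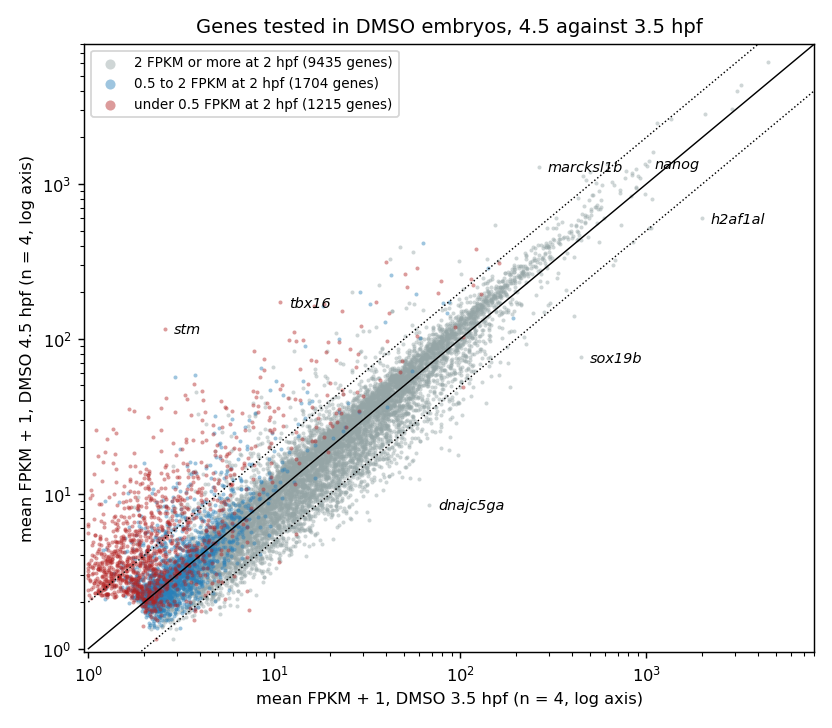
Mean FPKM + 1 of each tested gene at 4.5 hpf (vertical) against 3.5 hpf (horizontal) in DMSO embryos, both on log axes, coloured by the level at 2 hpf. The solid line marks equal levels and the dotted lines a 2-fold difference; the 1215 genes absent at 2 hpf lie mostly above the line, and the genes below the lower dotted line are nearly all grey, present at 2 hpf.

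The genes that rose most included genes of the embryo's outer layer and of mesoderm, endoderm and axis formation. The largest rise was that of stm (starmaker, on chromosome 19, known as an otolith matrix protein). It stood at 101, 97.7, 115 and 148 FPKM in the 4.5 hpf libraries and at 1.33, 1.62, 1.94 and 1.44 FPKM in the 3.5 hpf libraries. Its log2 difference was 5.48 ± 0.12 (SE, adjusted p = 8.87e-10). The groups were far apart, and replicate 4 was the highest of its stage.

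Keratins, the intermediate filaments of epithelial cells, followed. The keratin gene krt92 had 21.6, 19.0, 23.5 and 35.5 FPKM at 4.5 hpf, against 0.0984, 0, 0.0459 and 0.237 FPKM at 3.5 hpf. Its log2 difference was 4.53 ± 0.17 (SE, adjusted p = 7.96e-09). It was close to silent in all 3.5 hpf libraries. The relatives krt97, krt8 and krt4 rose by 4.42, 4.24 and 4.14 on the log2 scale. Of the 15 tested genes annotated to the intermediate filament family, 12 were higher and 1 was lower. Of the 8 of them at 1 FPKM or more in every 3.5 hpf library, 6 were higher and 1 lower, with a median of 0.52.

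Of the other genes among the 15 largest rises, several regulate or build epithelia and membranes. The tight junction gene cldnb rose by 4.01, the sodium pump subunit gene atp1b1a by 3.97, the carbonic anhydrase gene ca9 by 4.27 and the cell adhesion gene alcamb by 3.88 (log2 differences). The Cdk5 activator gene cdk5r1a rose by 4.28 and morc3b, of the MORC family of ATPases, by 3.90. The remaining members were the patterning genes tbx16, gata6, chrd and bmp7a, described with their lists below. All 15 had lower values in every 3.5 hpf library than in any 4.5 hpf library, as the rule for naming them required. Of all genes tested, the libraries of the 2 stages did not overlap for 64.8%.

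The enveloping layer is the outer epithelium of the blastula. Of its 18 listed genes, 15 were tested, 14 were higher and 0 were lower. Of the 8 at 1 FPKM or more in every 3.5 hpf library, 7 were higher, with a median of 2.59. Beside the keratins, the protease gene capn9 rose by 3.71, krt18 by 3.55 and spaca4l by 3.52. Its transcription factor genes grhl3 and tfap2a rose by 1.5 and 2.07.

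Of the 7 listed genes of the yolk syncytial layer, 5 were tested and higher, but only 2 of these, both higher, had 1 FPKM or more in every 3.5 hpf library. The other members passed through their 4.5 hpf libraries, which set their direction but not the call. The homeobox gene mxtx1, which acts at the head of that layer's program, stood at 29.3, 27.5, 31.2 and 37.6 FPKM at 4.5 hpf and at 2.42, 2.26, 2.40 and 3.19 FPKM at 3.5 hpf (log2 difference 3.18 ± 0.11 SE, adjusted p = 5.05e-09). The groups lay about an order of magnitude apart. The sulfate transporter gene slc26a1 rose by 1.91 and mttp, which loads lipoproteins, by 1.52.

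In the mesoderm, the T-box gene tbx16 led. It had 155, 148, 180 and 203 FPKM at 4.5 hpf, against 8.38, 9.56, 10.3 and 10.6 FPKM at 3.5 hpf, and 0 at 2 hpf. Its log2 difference was 4.0 ± 0.10 (SE, adjusted p = 1.44e-09). The mesodermal T-box gene tbxta rose to 17.8 ± 3.0 FPKM at 4.5 hpf, against 1.46 ± 0.16 at 3.5 hpf (SD, n = 4 each).

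Nodal signals induce mesoderm and endoderm. The ligand gene ndr2 rose by 1.99 and its secreted antagonist gene lft1 by 1.90. The co-receptor gene tdgf1, which was also maternal, rose by 1.38. The ligand gene ndr1 was near the detection level, at 2.20 ± 0.65 FPKM at 4.5 hpf and 1.27 ± 0.49 FPKM at 3.5 hpf (SD, n = 4 each). Its groups overlapped, its adjusted p was 0.0374, and the call was lost without replicate 2 or 3 of 4.5 hpf (log2 differences of 0.43 and 0.40) or replicate 1 or 2 of 3.5 hpf (0.50 and 0.34), against 0.50 with all libraries. The intracellular transducer gene smad2 fell by 1.27 on the log2 scale, with 29.7 ± 2.1 FPKM at 4.5 hpf and 72.7 ± 2.3 FPKM at 3.5 hpf (SD, n = 4 each). Of 14 listed Nodal and mesoderm genes, 11 were tested, 10 were higher and smad2 alone was lower. Of the 9 at 1 FPKM or more in every 3.5 hpf library, 8 were higher (median 1.38).

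Of the 7 listed endoderm genes, 6 were tested and higher, but only 2 of these had 1 FPKM or more in every 3.5 hpf library. The count over the list is therefore largely set by the filter, and the values of single genes are given. The transcription factor genes gata6, foxa3, gata5 and sox32 rose by 3.90, 3.58, 3.34 and 2.46. The chemokine receptor gene cxcr4a rose by less, 0.95, from a higher base of 78.7 ± 2.2 FPKM at 3.5 hpf (SD, n = 4). The sixth, foxa2, rose by 1.18, and sox17 did not reach the level for testing.

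Genes of the dorsal organizer and of the opposing BMP pathway rose together. The BMP antagonist gene chrd had 43.6, 44.3, 49.4 and 62.5 FPKM at 4.5 hpf, against 2.45, 2.73, 2.89 and 2.66 FPKM at 3.5 hpf (log2 difference 3.78 ± 0.10 SE, adjusted p = 1.90e-09). The BMP ligand gene bmp7a had 33.8, 41.1, 45.3 and 50.2 FPKM at 4.5 hpf, against 2.05, 2.22, 2.24 and 2.67 FPKM at 3.5 hpf (log2 difference 3.72 ± 0.11 SE, adjusted p = 2.80e-09). Neither gene had any overlap between the stages, and replicate 4 was the highest of 4.5 hpf for both.

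Of 7 tested organizer genes, 6 were higher, and of the 6 at 1 FPKM or more in every 3.5 hpf library 5 were, with a median of 0.77. They included the notochord homeobox gene noto, by 3.02, and the BMP antagonist gene nog1, by 1.27. The organizer gene dharma, an early target of maternal beta-catenin, rose by 0.44. The LIM homeobox gene lhx1a fell by 0.65. Of 13 tested ventral and BMP genes, 11 were higher, and of the 10 at that level in every 3.5 hpf library 8 were, with a median of 1.75. Beside bmp7a these included the secreted antagonist gene szl, by 2.84, and the pseudoreceptor gene bambia, by 2.32, as well as the ventral homeobox repressor genes vent, ved and vox, by 2.86, 2.58 and 2.10. The BMP target genes id3 and msx1b fell by 0.64 and 0.99.

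**Figure D2:**
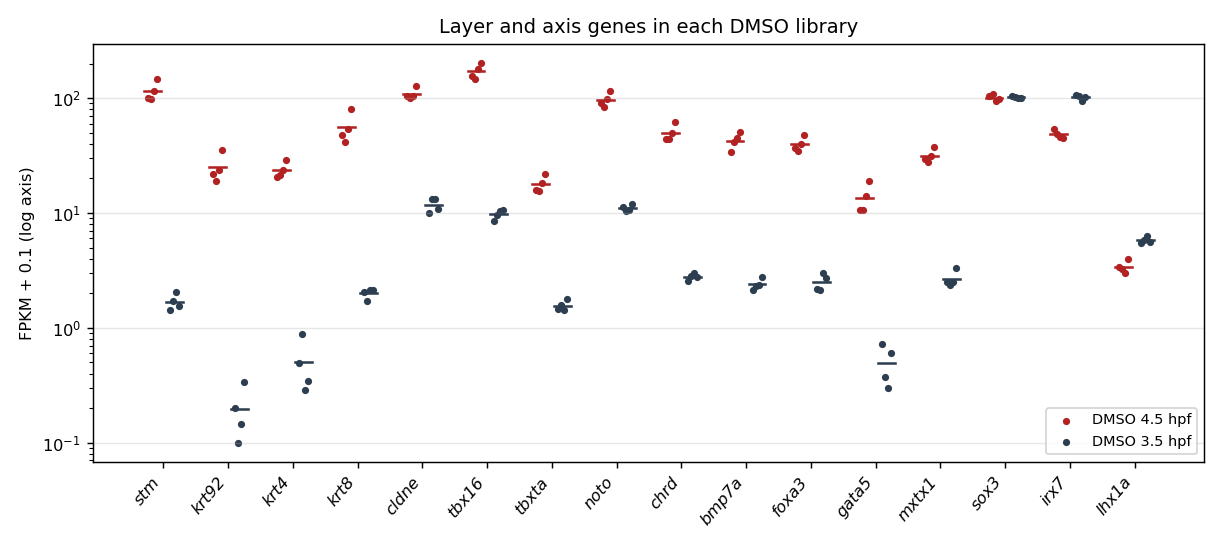
FPKM + 0.1 (log axis) of 16 genes in each of the 4 DMSO libraries of 4.5 hpf (red, left) and of 3.5 hpf (dark, right), with horizontal bars at the group means. The genes are stm, which is on no list of layer or axis genes, and genes of the embryonic layers and axes. The 2 stages are separate for all the genes shown except sox3, and irx7 and lhx1a are the genes shown that were lower at 4.5 hpf.

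Of the fibroblast growth factor ligand genes, fgf17 rose by 2.87, fgf3 by 2.72 and fgf8a by 2.16. Of 10 tested pathway genes, 7 were higher and 1 was lower. Of the 8 at 1 FPKM or more in every 3.5 hpf library, 5 were higher and 1 lower, with a median of 1.03. The feedback phosphatase gene dusp6 had overlapping groups, 4.64 ± 0.64 FPKM at 4.5 hpf and 3.95 ± 0.79 FPKM at 3.5 hpf (SD, n = 4 each, adjusted p = 0.200). The feedback gene il17rd, present at 2 hpf, fell by 0.61.

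The Wnt pathway, whose maternal branch sets the dorsal side, had genes of both directions. Of 14 tested genes, 5 were higher (35.7%, against 35.8% of all genes) and 7 lower, and the median was -0.22. The nuclear effector gene lef1 fell to 14.5 ± 1.6 FPKM at 4.5 hpf, against 34.2 ± 0.74 at 3.5 hpf (SD, n = 4 each). The gene ctnnb1, for beta-catenin itself, rose by 0.73 and its target gene sp5a by 1.70. On the same list, the ratio of mean FPKM at 4.5 hpf to that at 3.5 hpf was 0.56 for sp5l and 0.72 for axin2.

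The earliest zygotic genes did not all rise. Of 21 tested, all of them at 1 FPKM or more in every 3.5 hpf library, 17 were higher and 3 lower, with a median of 1.65. Among the strongest, the zinc finger gene blf stood at 539, 529, 537 and 576 FPKM at 4.5 hpf and at 142, 150, 154 and 162 FPKM at 3.5 hpf. The small heat shock protein gene hspb1 rose by 3.05 and the claudin gene cldne by 3.12.

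Sox3, a SoxB1 factor of the early ectoderm, had 104, 110, 93.6 and 97.4 FPKM at 4.5 hpf, against 105, 103, 101 and 99.6 FPKM at 3.5 hpf. The groups of sox3 overlapped, with a log2 difference of -0.02 ± 0.05 (SE, adjusted p = 0.741). Under TPM and total-read scaling sox3 was called lower. At 2 hpf it was at 0.347 FPKM, so its level at 3.5 hpf was already that of an hour later.

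For the 3 that fell, the level at 3.5 hpf was above that at 4.5 hpf. The homeobox gene irx7 (chromosome 23) had 53.3, 48.4, 45.9 and 45.3 FPKM at 4.5 hpf, against 106, 104, 94.5 and 102 FPKM at 3.5 hpf. Its mean at 2 hpf was 0.161 FPKM. Its log2 difference was -1.06 ± 0.05 (SE, adjusted p = 6.58e-08). The Krüppel-like factor gene klf17 fell by 0.50, to 135 ± 6.5 FPKM at 4.5 hpf, against 191 ± 4.7 at 3.5 hpf (SD, n = 4 each), and the repressor gene her3 fell by 1.31.

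Other genes absent at 2 hpf were also lower at 4.5 hpf than at 3.5 hpf. Of protein-coding genes absent at 2 hpf, 34 were lower in all, 23 of them with 2 FPKM or more at 3.5 hpf. With 5 FPKM or more at 3.5 hpf and no overlap between libraries there were 5. These were selp, irx7, gmip, kcnn1b and cntnap3, chosen after their values were seen. The adhesion gene selp had 4.47 ± 0.86 FPKM at 4.5 hpf and 12.1 ± 1.5 FPKM at 3.5 hpf (SD, n = 4 each), a log2 difference of -1.27.

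The precursors of miR-430, the microRNA that marks maternal messages for decay, also held fewer reads at 4.5 hpf. The tables list 54 of its precursors on chromosome 4 between 28693371 and 28709534 (in the tables' coordinates, whose build is not given in the sources used here), of 73 to 82 bases each, and 23 of them held any read in the 8 libraries. Summed over the 54, there were 24, 13, 10 and 5 reads in the 4.5 hpf libraries, against 49, 59, 43 and 44 reads in the 3.5 hpf libraries, and 0 in each DMSO library of 2 hpf, which allows up to 3 reads per library by counting error alone. Per M assigned reads these were 1.2, 1.18, 0.661 and 0.315 at 4.5 hpf and 3.32, 3.88, 4.04 and 3.07 at 3.5 hpf. The groups did not overlap. The features are short, their copies nearly identical and the counts few, so how many reads were lost to ambiguous alignment is unknown; they were looked up after other values had been seen and no test is given.

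Neurectoderm genes were mixed. Of 7 tested, 4 were higher (57.1%, against 35.8% of all genes) and 2 lower (irx7 and otx1, 28.6%, against 34.3%), with a median of 0.21. The zinc finger gene zic2b rose by 2.21, and otx1, which was maternal at 93.0 FPKM at 2 hpf, fell by 1.33. Under TPM and total-read scaling the counts were 3 higher and 3 lower.

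The 15 largest falls were of transcripts with varied known roles. The largest fall was that of dnajc5ga (chromosome 20), which encodes a J-domain protein of the cysteine string family. It had 7.19, 7.58, 7.55 and 7.77 FPKM at 4.5 hpf, against 71.9, 69.3, 64.4 and 62.6 FPKM at 3.5 hpf and 163 FPKM on average at 2 hpf. Its log2 difference was -3.0 ± 0.05 (SE, adjusted p = 3.61e-10). The 4.5 hpf values were close together and all far under those of 3.5 hpf.

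The activator gene sox19b came next. It had 79.3, 83.6, 77.9 and 58.9 FPKM at 4.5 hpf, against 452, 449, 445 and 435 FPKM at 3.5 hpf (log2 difference -2.57 ± 0.09 SE, adjusted p = 5.99e-09). At 2 hpf it stood at 436 FPKM, so the drop fell within the hour. The partner activators did not follow. The gene pou5f3 was higher, with 843 ± 41 FPKM at 4.5 hpf and 518 ± 3.6 FPKM at 3.5 hpf, and nanog was higher, with 1346 ± 20 FPKM at 4.5 hpf and 984 ± 8.6 FPKM at 3.5 hpf (SD, n = 4 each).

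A pair of genes of the polyadenylation machinery were among the largest falls. The gene cpeb1b, for a protein that controls cytoplasmic polyadenylation, had 18.6, 19.1, 17.1 and 17.4 FPKM at 4.5 hpf, against 86.7, 88.4, 84.6 and 83.9 FPKM at 3.5 hpf (log2 difference -2.19 ± 0.04 SE, adjusted p = 3.61e-10). The gene papd7, for a noncanonical poly(A) polymerase, fell by 2.27 on the log2 scale. Both groups were tight and well separated.

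Others of the 15 largest falls included the histone demethylase gene kdm4ab, by 2.08, and the p53 inhibitor gene mdm4, by 1.98. The signalling adaptor gene traf3 fell by 2.03, the centrosomal gene lrrcc1 by 1.93 and the calcium pump gene atp2a2a by 1.92. The lipid transfer gene stard7 and the nuclear envelope phosphatase gene ctdnep1b each fell by 1.93. The remaining members were fam193a, bend5 and arl4aa, by 2.24, 1.90 and 1.90, and buc. The gene buc, which organizes the Balbiani body of the oocyte, had 51.7, 54.3, 47.6 and 38.5 FPKM at 4.5 hpf, against 191, 181, 182 and 183 FPKM at 3.5 hpf.

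Falling genes did not share 1 course before the hour. Of those named here, sox19b and buc had means at 3.5 hpf close to their means at 2 hpf (445 and 184 against 436 and 179 FPKM). The genes papd7 and cpeb1b had already dropped, to 58.9 and 85.9 FPKM at 3.5 hpf, against 236 and 167 FPKM at 2 hpf. The gene fam193a was higher at 3.5 hpf than at 2 hpf, at 31.1 against 9.45 FPKM, before its fall to 5.81 FPKM at 4.5 hpf.

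Of 20 tested transcripts known to be deposited in the oocyte, 13 were lower (65%, against 34.3% of all genes). Only 2 were higher (10%, against 35.8%), and the median was -0.51. Beside those above, lsm14b, for an RNA granule protein, fell by 1.54 and the buc relative buc2l by 1.68. The oocyte linker histone gene h1m fell by 0.43 and stayed at 544 ± 34 FPKM at 4.5 hpf (SD, n = 4). The nucleoplasmin gene npm2b and the cap-binding gene eif4e1b were higher, by 0.32 and 0.15. The call of eif4e1b was lost without replicate 4 of 3.5 hpf (0.12), and under TPM its difference was -0.011. The gene zar1 and its relative zar1l, with log2 differences of 0.06 and 0.02, were not called. The genes btg4 and mos did not reach the level for testing, and btg4 is listed at 0.

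Germ plasm RNAs, which the future germ cells retain while somatic cells clear them, were mostly lower. All 11 were tested. Of these 8 were lower (72.7%, against 34.3% of all genes) and 3 higher (27.3%, against 35.8%), with a median of -0.28. The gene tdrd6, for a Tudor protein of germ granules, fell to 4.03 ± 0.62 FPKM at 4.5 hpf, against 16.5 ± 0.72 at 3.5 hpf (SD, n = 4 each). The genes rgs14a and dazl fell by 1.13 and 0.89. The helicase gene ddx4 (vasa) was higher, by 0.33, at 147 ± 2.1 FPKM at 4.5 hpf and 117 ± 2.95 FPKM at 3.5 hpf (SD, n = 4 each).

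Factors of decay and clearance were a mixed group, with 13 of 22 higher (59.1%, against 35.8% of all genes) and 6 lower (27.3%, against 34.3%). Their median was 0.23. Of the 21 at 1 FPKM or more in every 3.5 hpf library, 12 were higher and 6 lower, with a median of 0.20. The RNA-binding genes ybx1 and elavl1a rose by 0.92 and 0.73 and the m6A reader gene ythdf2 by 0.49. The RNA-binding gene zfp36l1b rose by 0.87, with a ratio of mean FPKM of 5.37 between the later and the earlier stage. A ratio so far past its difference places its mean under 1 FPKM at 3.5 hpf. The microRNA pathway genes rnasen (Drosha), dicer1, ago2 and dgcr8 fell by 0.90, 0.59, 0.39 and 0.21. The groups of ago2 overlapped, and dgcr8 was not called without replicate 2 of 3.5 hpf (-0.17). Of 7 reported miR-430 targets, 4 were higher (57.1%, against 35.8% of all genes) and 3 lower (42.9%, against 34.3%). Their median level at 2 hpf was 0.099 FPKM, so this is not a count of maternal messages alone. The higher ones included the chemokine gene cxcl12a, by 1.86, and its scavenger receptor gene ackr3b, by 0.93. The lower ones included the tetraspanin gene cd82b, by 1.28, and the germ plasm genes tdrd7a and nanos3, by 0.63 and 0.23.

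Several genes known from the oocyte fell while a related gene rose. Of 14 pairs of such a gene and a relative, 11 had both genes tested, and in 5 of these the first was lower and the second higher. Of the 10 tested first genes 6 were lower, against 34.3% of all genes, and of the 14 relatives 11 were higher, against 35.8%, and 2 lower. The genes cpeb1b and cpeb4b were both lower (-2.19 and -0.38), and eif4e1b and eif4ea both higher (0.15 and 0.45). The pair of SoxB1 genes gave sox19b at 74.9 ± 10.9 FPKM at 4.5 hpf and 445 ± 7.5 FPKM at 3.5 hpf. Its partner sox19a had 51.2 ± 3.1 FPKM at 4.5 hpf and 18.8 ± 2.4 FPKM at 3.5 hpf (SD, n = 4 each). The maternal gene was still the higher of the pair at 4.5 hpf.

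The histone stem-loop binding genes crossed earlier. The maternal slbp2 fell by 1.48, to 20.8 ± 2.6 FPKM at 4.5 hpf, and slbp rose by 0.50, to 144 ± 8.7 FPKM at 4.5 hpf (SD, n = 4 each). At 2 hpf slbp2 stood at 208 FPKM and slbp at 118 FPKM, so both were already present. The cyclin A genes parted over the hour, with ccna1 lower by 0.85 and ccna2 higher by 0.26. They did not cross, as ccna2 was already the higher at 2 hpf, at 582 FPKM against 534 FPKM for ccna1. At 3.5 hpf ccna2 stood at 465 FPKM, under its 2 hpf level. The claudin gene cldnd fell to 519 ± 43 FPKM at 4.5 hpf, against 1055 ± 34 at 3.5 hpf, while cldne rose to 109 ± 13 FPKM at 4.5 hpf, against 11.7 ± 1.7 at 3.5 hpf (SD, n = 4 each). The kinase gene wee2 fell by 0.57 and wee1 rose by 1.24 at a low level, 2.91 FPKM at 4.5 hpf and 0.627 FPKM at 3.5 hpf.

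The helicase pair differed from these. Here mcm6 had 20.1, 19.9, 21.2 and 25.2 FPKM at 4.5 hpf, against 2.03, 2.36, 2.64 and 2.40 FPKM at 3.5 hpf. Its relative mcm6l, known as a maternal form in frogs, had 11.2, 10.6, 10.4 and 11.3 FPKM at 4.5 hpf, against 10.4, 12, 11.6 and 13.1 FPKM at 3.5 hpf, with overlapping groups (adjusted p = 0.222). At 2 hpf mcm6l averaged only 1.69 FPKM, so in these embryos it was not rich in the RNA of that stage. Under TPM and total-read scaling mcm6l was called lower.

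**Figure D3:**
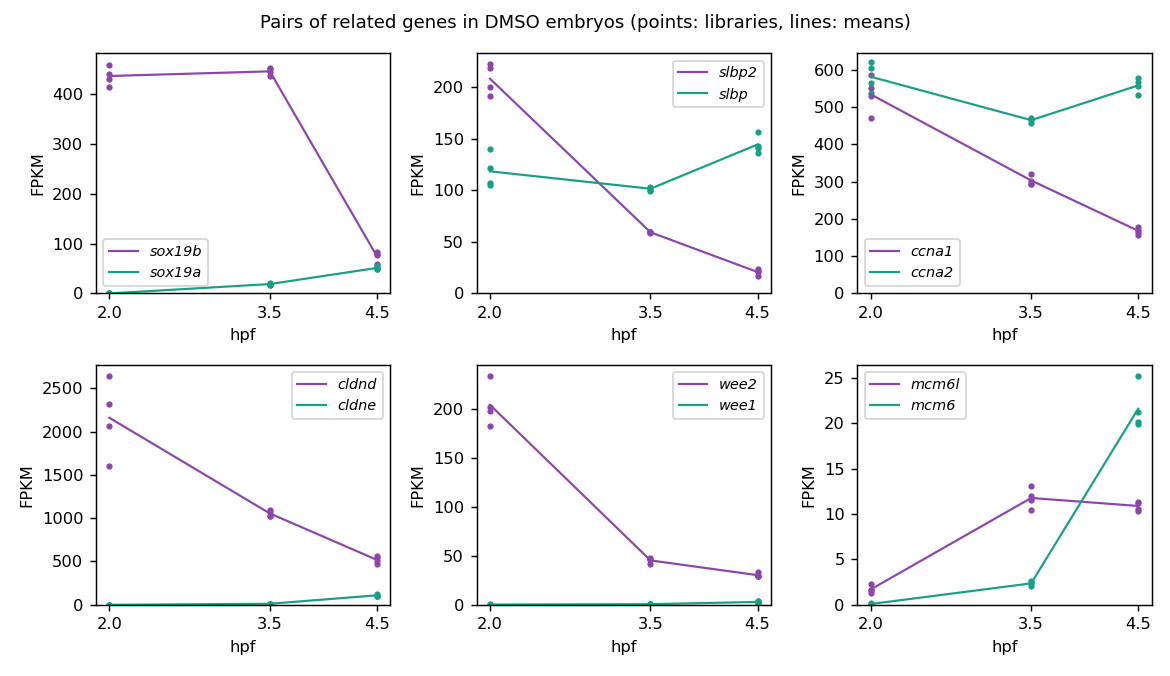
FPKM (vertical) at 2, 3.5 and 4.5 hpf (horizontal) of 6 genes listed as oocyte forms (purple) and their relatives (green) in DMSO embryos, with a point for each of the 4 libraries and lines through the means. In 5 panels the purple gene was lower and the green gene higher at 4.5 than at 3.5 hpf; in the panel of mcm6l and mcm6 the green gene alone was called, and mcm6l was low at 2 hpf. The 2 hpf values come from a table scaled on its own.

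Cell cycle genes changed in both directions, with 13 of 26 higher (50%, against 35.8% of all genes) and 11 lower (42.3%, against 34.3%). The embryo's rapid cycles lengthen around this stage. The G1 cyclin gene ccnd1 had 155, 144, 165 and 182 FPKM at 4.5 hpf, against 14.1, 15.03, 14.2 and 17.8 FPKM at 3.5 hpf (log2 difference 3.32 ± 0.08 SE, adjusted p = 1.44e-09). The groups were an order of magnitude apart. The cyclin E gene ccne2 rose by 2.99 and the Cdk inhibitor gene cdkn1ca by 2.04.

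The mitotic cyclin gene ccnb2, one of the most abundant maternal messages, had 554, 552, 506 and 452 FPKM at 4.5 hpf, against 1068, 1050, 1012 and 1006 FPKM at 3.5 hpf. The checkpoint kinase gene chek1, which acts in the slowing of the cycle, fell by 0.44. Under TPM and total-read scaling, 8 cell cycle genes were higher and 11 lower.

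Among 29 replication genes, 11 were higher (37.9%, against 35.8% of all genes) and 10 lower (34.5%, against 34.3%), with a median of -0.02. The genes mcm6, mcm3 and dbf4 rose by 2.75, 2.39 and 1.96, and topbp1, a limiting factor for origin firing in frog embryos, fell by 0.74. Under TPM scaling the counts were 10 higher and 15 lower.

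Of 20 genes of the p53 response and apoptosis, 10 were higher (50%, against 35.8% of all genes) and 9 lower (45%, against 34.3%). Known p53 target genes were in both groups. The genes phlda3, pmaip1, gadd45aa and cdkn1a rose by 2.34, 1.95, 1.57 and 0.68, while sesn1 fell by 0.47. The gene phlda3 varied between replicates, with 10.1, 3.28, 8.73 and 12.2 FPKM at 4.5 hpf, against 1.45, 0.472, 0.369 and 0.865 FPKM at 3.5 hpf. Its groups did not overlap. The inhibitor mdm4 was described above, and casp8 fell by 0.63.

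Readers and writers of histone acetylation, which the study's title concerns, were divided. Of 14 tested, 6 were higher (42.9%, against 35.8% of all genes), 3 lower (21.4%, against 34.3%) and 5 not called. The median was 0.05, and 1 gene rose and 1 fell by more than 2-fold. The bromodomain gene brd2a had 153, 147, 153 and 155 FPKM at 4.5 hpf, against 60.9, 62.5, 62.7 and 61.2 FPKM at 3.5 hpf (log2 difference 1.29 ± 0.03 SE, adjusted p = 4.60e-10). The acetyltransferase gene crebbpa fell by 1.01 at a low level, 1.87 ± 0.13 FPKM at 4.5 hpf and 4.81 ± 0.44 FPKM at 3.5 hpf (SD, n = 4 each). The genes crebbpb and ep300b were not called, at log2 differences of 0.13 and -0.10. For ep300a the ratio of mean FPKM at 4.5 hpf to that at 3.5 hpf was 0.58. The call of ep300b depended on the scaling, and it was lower under TPM. Of 9 histone deacetylase genes, 3 were higher (33.3%, against 35.8% of all genes) and 2 lower (22.2%, against 34.3%). The gene hdac1 rose by 0.47, and hdac4 fell by 0.59. Under TPM the acetylation list had 4 higher and 6 lower and the deacetylases 1 higher and 3 lower.

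Ribosomal protein and spliceosome genes were higher almost throughout, by small amounts, and most initiation factor and proteasome genes were higher too. Of 72 tested cytosolic ribosomal protein genes, 69 were higher and 0 lower, with a median of 0.61. Their share of summed FPKM was 2.03% ± 0.071 at 4.5 hpf and 1.52% ± 0.039 at 3.5 hpf (SD, n = 4 each, exact permutation p = 0.0286). The gene rplp1 had 77.5, 75.8, 80.2 and 93.3 FPKM at 4.5 hpf, against 38.4, 32.7, 40.2 and 32.5 FPKM at 3.5 hpf. Among those past 1 on the log2 scale, rps27a and rpl30 each had 1 library far above the rest. The gene rps27a had 34.6, 7.53, 9.58 and 8.28 FPKM at 4.5 hpf, and its log2 difference was 1.24, or 0.76 without replicate 1 of 4.5 hpf. That of rpl30 was 1.12, or 0.68 without replicate 2 of 4.5 hpf, and it was not called without replicate 3 of 3.5 hpf (0.93).

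Spliceosome and SR protein genes gave 46 of 49 higher and 1 lower (median 0.38). The splicing regulator gene srsf5a rose by 1.82. Translation initiation factors gave 42 of 57 higher and 6 lower (median 0.34). Among them eif4a2 rose by 2.26, and the gene of the cap-binding inhibitor eif4ebp2 fell by 1.27. Proteasome subunits gave 31 of 39 higher and 4 lower (median 0.35), with psmb6 higher by 1.70. RNA polymerase II subunits gave 7 of 12 higher (58.3%, against 35.8% of all genes) and 1 lower (8.33%, against 34.3%). Their median was 0.32. Under TPM scaling 67 ribosomal protein, 41 spliceosome, 34 initiation factor and 25 proteasome genes were higher, each still a majority of those tested. Under TPM 10 initiation factor genes were lower, and 6 of the 12 RNA polymerase II genes were higher.

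Mitochondrial messages were higher in part. Of the 13 mitochondrially encoded genes, 8 were higher and 0 lower, and mt-co1, mt-co2, mt-co3 and mt-cyb were among the 8 largest gains in FPKM of any gene. The gene mt-co1 had 6109 ± 124 FPKM at 4.5 hpf and 4517 ± 281 FPKM at 3.5 hpf (SD, n = 4 each). Under TPM scaling 5 were higher and 3 lower. Nuclear genes of oxidative phosphorylation gave 37 of 73 higher (50.7%, against 35.8% of all genes) and 6 lower (8.22%, against 34.3%). Under TPM 27 of them were higher and 17 lower. Glycolysis genes were divided, with 7 of 17 higher (41.2%, against 35.8% of all genes) and 8 lower (47.1%, against 34.3%). Of the triose phosphate isomerase genes, tpi1a fell by 1.60 and tpi1b rose by 0.26.

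Among genes for heat shock proteins and folding, 13 of 20 were higher (65%, against 35.8% of all genes) and 4 lower (20%, against 34.3%). Beside hspb1, the stress transcription factor gene atf4a rose by 2.12, while the ER folding gene pdia4 fell by 1.23. Under TPM 8 were higher and 6 lower.

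The 4 largest gains in FPKM outside the mitochondria were those of h3f3b.1, khdrbs1a, marcksl1b and hmga1a. The gene h3f3b.1 on chromosome 3, for the replacement histone H3.3, had 2479 ± 147 FPKM at 4.5 hpf and 1135 ± 22 FPKM at 3.5 hpf. The RNA-binding gene khdrbs1a had 2633 ± 129 FPKM at 4.5 hpf and 1346 ± 11 FPKM at 3.5 hpf. The chromatin gene hmga1a had 1347 ± 92 FPKM at 4.5 hpf and 613 ± 7.7 FPKM at 3.5 hpf (SD, n = 4 each). At 2 hpf these 3 genes were already abundant.

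The membrane-linked actin regulator gene marcksl1b had 1247, 1191, 1256 and 1455 FPKM at 4.5 hpf, against 249, 259, 263 and 281 FPKM at 3.5 hpf, and 10.6 FPKM at 2 hpf. The largest losses were those of h2af1al, cldnd, ccnb2, mid1ip1l, sox19b, cldng, cth1 and ccnb1. The gene cth1, for a zinc finger RNA-binding protein, had 322 ± 22 FPKM at 4.5 hpf and 680 ± 29 FPKM at 3.5 hpf (SD, n = 4 each), and 2233 FPKM at 2 hpf.

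Histone genes as a list had 27 of 35 higher and 1 lower. Of the 24 at 1 FPKM or more in every 3.5 hpf library, 20 were higher, with a median of 0.77. Their copies are nearly identical, so which copy a read came from is uncertain. The variant gene h2afx rose by 1.74 and hist2h3c by 1.71. The 1 that fell was h2af1al, an egg-stored H2A variant, with 599 ± 88.5 FPKM at 4.5 hpf and 1982 ± 126 FPKM at 3.5 hpf (SD, n = 4 each). Of 89 tested genes annotated to the histone family, 76 were higher and 2 lower.

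**Figure D4:**
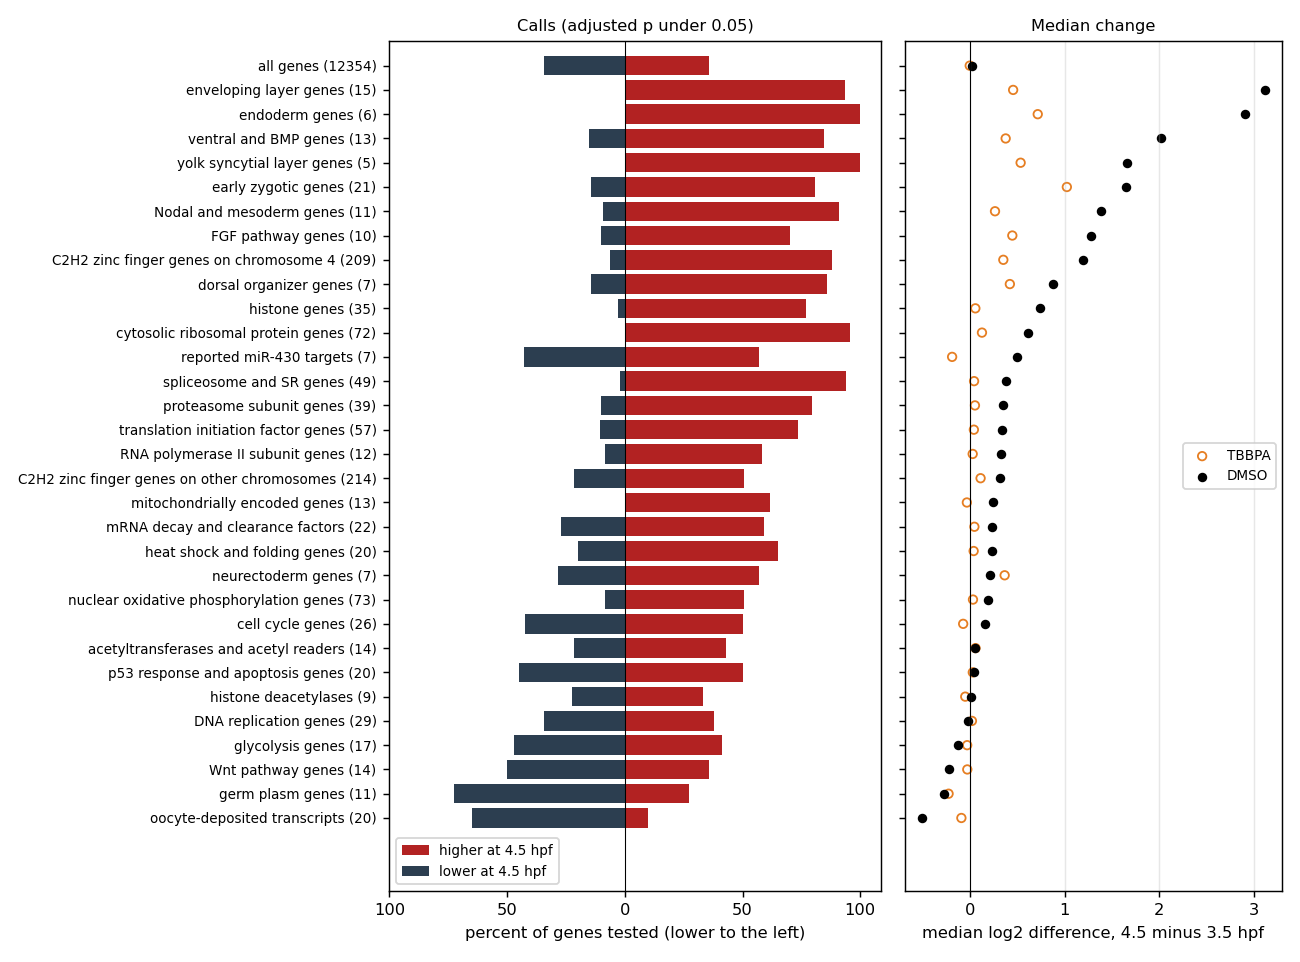
Left, percent of the tested genes of each list that were higher (red, to the right) or lower (dark, to the left) at 4.5 hpf than at 3.5 hpf in DMSO embryos; the number tested is in parentheses, and all 12354 genes are the top bar. Right, the median log2 difference of each list in TBBPA (open circles) and DMSO (black points) embryos. The enveloping layer list has the highest DMSO median, 3.12, followed by the endoderm list, 2.90. The neurectoderm list has 0.21, and the oocyte list has the lowest median, -0.51. Members that passed the filter through 4.5 hpf libraries alone had to have the greater mean there, though not to be called.

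The long arm of chromosome 4 held a separate block of rising genes. Of 374 listed C2H2 zinc finger genes on that chromosome, 209 were tested, 184 were higher and 13 lower. Of the 90 at 1 FPKM or more in every 3.5 hpf library, 67 were higher and 13 lower, with a median of 1.01. More than 2-fold rises numbered 131 over the 209 tested, of which 126 were absent at 2 hpf. Of the 209, 177 were absent then. As the 131 exceed the 90, they include members that were under 1 FPKM in some 3.5 hpf library. Those 131 genes start between 28442223 and 73398788 in the tables' coordinates. Of the 165 C2H2 genes on other chromosomes at that level in every 3.5 hpf library, 70 were higher and 46 lower, with a median of 0.16.

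As examples, znf1047 rose to 11.7 ± 1.3 FPKM at 4.5 hpf, against 0.988 ± 0.23 at 3.5 hpf, and znf569l to 18.3 ± 2.5 FPKM at 4.5 hpf, against 2.17 ± 0.47 at 3.5 hpf (SD, n = 4 each). The copies are alike, so the level of a single gene is uncertain. Across chromosomes, 167 of 568 tested protein-coding genes of chromosome 4 rose more than 2-fold (29.4%), and the next highest shares were 11.2% on chromosome 7 and 10.4% on chromosome 25. Among genes at 1 FPKM or more in every 3.5 hpf library the shares were 16.1% on chromosome 4, 7.63% on chromosome 25 and 7.10% on chromosome 7. Without the C2H2 genes the share on chromosome 4 was 36 of 359 (10.03%).

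Gene span differed between sets that differ both in direction and in their level at 2 hpf. Protein-coding genes that rose more than 2-fold and were absent at 2 hpf spanned a median of 7967 bases (n = 562). Those that fell more than 2-fold and were present at 2 hpf spanned 21455 bases (n = 601), and all tested protein-coding genes 16696 bases (n = 11947). The gene's span equalled its listed length, as in a gene without introns, in 11.0% of the first set, 1.5% of the second and 2.24% of all. Among the rising genes that already had 2 FPKM or more at 3.5 hpf the median span was 5982 bases, and 19.5% had span equal to length (n = 154). Genes present at 2 hpf that rose more than 2-fold had a median span of 8876 bases (n = 166), and genes absent at 2 hpf that were lower, with 2 FPKM or more at 3.5 hpf, 6158 bases (n = 23). Short spans were thus not limited to rising genes. In these sets span equalled length for 6.63% and 8.7%. Leaving the C2H2 genes out of the rising genes absent at 2 hpf gave 7382 bases and 14.7% (n = 409). These are descriptions of the annotation, and genes are not replicates.

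Under TBBPA the same hour brought smaller changes. Over the 4 TBBPA libraries of 4.5 hpf against the 4 of 3.5 hpf, 1983 of 12780 genes were called (15.5%). Of these 924 were higher (7.23%) and 1059 lower (8.29%), and 144 (1.13%) were higher and 4 (0.0313%) lower by more than 2-fold. This fit took its variance and its filter from all 16 libraries, DMSO included. The DMSO comparison above used its 8 libraries alone. Fitted over all 16 libraries, the DMSO comparison called 8852 of 12354 genes. The interaction of treatment and time, fitted over all 16 libraries, was called for 6753 genes (52.8%). The 983 genes chosen for a rise of more than 2-fold in DMSO had a median log2 difference of 0.40 in TBBPA embryos and 1.54 in DMSO embryos. Under TBBPA 514 of them (52.3%) were higher. The 629 genes chosen for their fall had a median of -0.28 in TBBPA embryos and -1.19 in DMSO embryos, and 389 (61.8%) were lower under TBBPA. The DMSO medians are fixed by that choice.

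Each of the 3 largest rises and falls in DMSO differed between the treatments by the interaction term. These genes were chosen by their DMSO change, which is part of the interaction, so the choice favoured these calls. The interaction was called for 52.8% of all genes. The gene stm had log2 differences of 2.36 in TBBPA and 5.48 in DMSO embryos, an interaction of -3.12. Its companions krt92 and krt97 had 0.28 and 1.19 in TBBPA and 4.53 and 4.42 in DMSO embryos. For the falling genes dnajc5ga, sox19b and papd7 the differences were -0.67, -0.56 and -0.54 in TBBPA and -3.0, -2.57 and -2.27 in DMSO embryos.

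The lists did not all shrink alike, though these medians were not tested against each other. Enveloping layer genes had a median of 0.46 in TBBPA and 3.12 in DMSO embryos, and early zygotic genes 1.02 in TBBPA and 1.65 in DMSO embryos. The genes lft1, vox and foxi1, chosen after their values were seen, went their own ways. The Nodal antagonist gene lft1 changed by -0.46 in TBBPA and 1.90 in DMSO embryos, vox by -0.11 in TBBPA (not called) and 2.10 in DMSO embryos, and the ectodermal gene foxi1 by 1.18 in TBBPA and 0.37 in DMSO embryos.

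**Figure D5:**
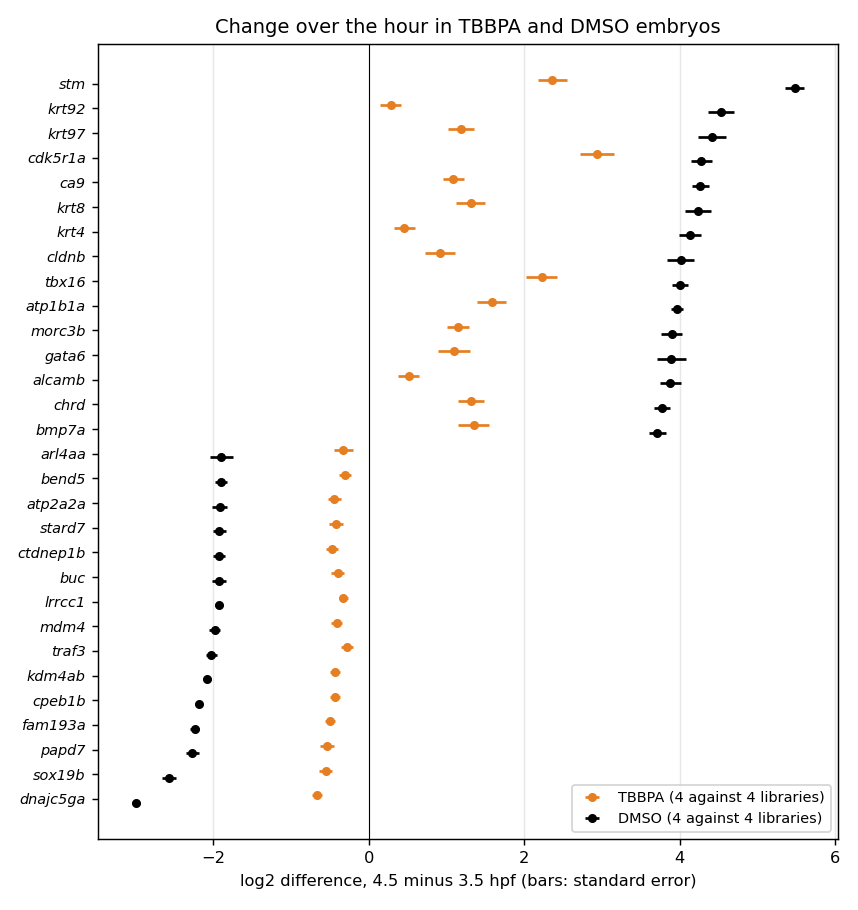
Log2 difference of 4.5 minus 3.5 hpf (horizontal, with its standard error) for the 15 genes that rose most and the 15 that fell most in DMSO embryos, in TBBPA (orange) and DMSO (black) embryos, 4 libraries against 4 in each. Every orange point lies on the same side of 0 as the black point and closer to 0. The genes were chosen by their DMSO values. The TBBPA standard errors come from a fit over 16 libraries and the DMSO ones from a fit over 8.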

How the data were processed

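RNA of whole zebrafish embryos was sequenced, with 4 libraries for each treatment and time. Genes annotated as ribosomal RNA had means that summed to 105 FPKM in DMSO embryos of 4.5 hpf, of 417908 FPKM over all genes. Whether messages were selected by their poly(A) tail is not stated here. If they were, a change of tail length and a change of level cannot be told apart. The submitters' processing notes name HISAT2 2.0.5 and featureCounts 1.5.0-p3, without a genome build, which is not given in the sources used here. Per the labels' protocols the kit may or may not have kept the strand, so overlapping and antisense genes are uncertain. The authors deposited FPKM in 2 tables of 31901 genes, 1 for 2 hpf and 1 for 3.5 and 4.5 hpf. Values times gene length came out, for 100% of genes and within 0.001, as whole multiples of a step of each library, and were taken as reads. In the shared table the step followed the median-of-ratios size factor of its 16 libraries, so the deposited FPKM carry that scaling. Multi-copy genes are uncertain.

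Limma 3.58.1 in R 4.3.3, with a variance trend, was fitted to log2(FPKM+1) of the 8 libraries, for genes at 1 FPKM or more in 4 libraries. It was also run on simulated data in which only a small part of the genes changed. Most genes were called here, so that run does not bear on the choice of scaling. The interaction and the comparison within TBBPA were fitted and filtered over 16 libraries. Library measures were compared by exact permutation. Alternatives were a pseudocount of 0.1 or 5, other filters and scalings, limma voom on the recovered reads, all 16 libraries in the fit, a replicate block and each library left out.

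Named genes are the 15 largest rises and falls among called protein-coding genes with a symbol, a mean of 5 FPKM or more in 1 group and no overlap, the 8 largest gains and losses of FPKM, the most changed genes of each list, list members that did not pass, and paralog pairs. Further list members are printed for their role. Members and lists were chosen with earlier results of these data known. Of 354 list symbols, 5 were matched through a reference table and 3 were not found. Some list members are counted but not reported here by name.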

Additional observations from a re-analysis of the deposited data

Results flagged for a closer look

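The genes named above and the library measures were screened for a single library standing apart from the other 3 of its stage, over 364 groups of 4. Such a gap was found in 26 of them, where chance gives about 1 in 20, or 18.2 groups. Replicate 4 of 4.5 hpf was the one standing apart in 8 of the 26, and no other library in more than 4. Its values in these cases were 49.5 FPKM for cldnb, 2697 for h3f3b.1, 1483 for hmga1a, 128 for cldne, 11.4 for szl and 880 for ybx1, each the highest of its stage, and 3.69 for dusp6 and 31.2 for tdrd7a, each the lowest.

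In the other 4.5 hpf libraries, replicate 1 stood apart for rps27a at 34.6 FPKM, against 7.53 to 9.58 in the rest. Replicate 2 did so for rpl30 at 25.01 FPKM, against 6.32 to 7.25 in the rest, and for zic2b at 13.4, sp5a at 3.17 and chek1 at 27.9. Replicate 3 did so for mt-co2 at 4228 FPKM, nog1 at 5.89 and wee2 at 33.2.

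In the 3.5 hpf libraries, replicate 1 stood apart for buc at 191 FPKM, cth1 at 724 and gadd45aa at 1.93. Replicate 2 did so for khdrbs1a at 1362 FPKM, lft1 at 2.91, krt18 at 5.31 and zar1l at 2.22. Replicate 4 did so for krt97 at 1.26 FPKM, spaca4l at 2.45 and selp at 14.3. The gene rpl30 was not called without replicate 3 of 3.5 hpf.

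The change over the hour differed between TBBPA and DMSO embryos, by the interaction of treatment and time, for 6753 genes (52.8%). The largest rises and falls named next were chosen by their DMSO change, which is part of the interaction. Among the largest rises the interaction was -3.12 for stm, -4.25 for krt92 and -3.23 for krt97 on the log2 scale. Among the largest falls it was 2.33 for dnajc5ga, 2.01 for sox19b and 1.73 for papd7. For the genes chosen after their values were seen it was -2.36 for lft1, -2.20 for vox and 0.81 for foxi1.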

How the results depend on the processing

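The count of called genes stayed within 1.5 times of 8662 under all 18 alternatives, and was 8253 to 8497 with 1 library left out. Counts past 2-fold moved more. A pseudocount of 5 left 392 higher and 200 lower, and a pseudocount of 0.1 gave 1012 lower. Genes lower by more than 2-fold numbered 952 under TPM scaling and 1201 with limma voom on recovered reads. A filter of 5 FPKM, which tests fewer genes, left 560 higher by more than 2-fold. Of genes absent at 2 hpf, 341 were then higher and 6 lower, and with no filter 2266 and 289. An absence limit of 0.1 FPKM gave 582 higher and 21 lower, and a limit of 1 FPKM 127 lower. Of genes present at 2 hpf, 1818 were higher under TPM. The 4.5 minus 3.5 hpf difference in the number of genes detected was -30.5 at a level of 5 FPKM. The gene eif4e1b had -0.011 by TPM. Of 175 named genes compared, 166 kept direction and side throughout. Where no construction of the setting shows the cause, the cause was not tested.

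With the replicate number as a block, 8567 genes were called. Deviations of same-numbered libraries correlated at 0.0784, -0.0135, 0.0115 and 0.0361. Those of differently numbered libraries across the stages correlated at -0.106 to 0.0911. No shared deviation by number was visible. The labels do not say what a number means, so whether same-numbered libraries share an origin cannot be told from these values.

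Limits: copies of multigene families, short features and genes near 1 FPKM are the least certain. With 4 against 4 libraries an exact permutation p cannot fall under 0.0286. Levels at 2 hpf were scaled apart.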

Other observations

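Small nucleolar RNAs, which guide the modification of ribosomal RNA, had mean levels that summed to 314 FPKM at 4.5 hpf and 63.1 FPKM at 3.5 hpf over the 247 listed. Of 40 tested, 31 were higher and 0 lower, but only 2 had 1 FPKM or more in every 3.5 hpf library, so this count is largely set by the filter. They are short features that lie within other genes, so their values are uncertain. Of the 81 lincRNAs at 1 FPKM or more in every 3.5 hpf library, 22 were higher and 24 lower. Over all genes at that level in every 3.5 hpf library, 32.8% were higher and 37.7% lower.

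Among protein families annotated in the tables, proteins with an RNA recognition motif had 109 of 158 genes higher and 22 lower. Protein kinases had 117 of 264 lower (44.3%) and 77 higher (29.2%). Helix-loop-helix factors had 16 of 34 lower (47.1%) and 11 higher (32.4%). Of all genes tested, 34.3% were lower and 35.8% higher. These families were read off after their values were seen. The split between higher and lower depends on the scaling, as described above.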
